A study of Caenorhabditis elegans with 2 samples.

Results

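The genes described here are 47 cell cycle and replication licensing genes of Caenorhabditis elegans, taken by name from a list of cyclins, cyclin-dependent kinases, kinase inhibitors, origin proteins and helicase subunits. All 47 names were found among the 19973 nuclear protein-coding genes of the Ensembl annotation of WBcel235, which is the build ce11. They fall into 11 G1/S genes, 13 replication genes, 17 mitotic genes and 6 other kinases and segregase genes. The measurement was ChIP-seq (sequencing of immunoprecipitated chromatin) of FKH-6, a forkhead transcription factor known for its role in the somatic gonad. There was 1 group of 2 biological replicates and no second condition, so the data show where chromatin was recovered with the tagged protein and hold no contrast between conditions. Both replicates were whole hermaphrodites of strain OP78, genotype unc-119(ed3) III; wgIs78, collected as late embryos 5.5 hours after synchronization by bleaching of eggs. All animals came from this 1 transgenic line, which stably carries FKH-6 with a GFP-FLAG tag at its C-terminus, and the chromatin was sonicated and recovered with an antibody against GFP. Whole organisms were used, so a region with a low signal in every cell and one with a high signal in few cells cannot be told apart.

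Cyclins activate cyclin-dependent kinases, which drive cells from G1 into S phase and from G2 into mitosis. The retinoblastoma protein holds E2F-DP factors in check until G1/S kinases inactivate it, and E2F targets in animals include many replication genes. Replication origins are licensed when the origin recognition complex, CDC6 and CDT1 load the ring of MCM helicase subunits, which CDC7 and S phase kinases later activate.

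A gene was given a region when the region's summit, its point of highest signal, lay inside the gene or within 2000 bp of its 5' end on either side. The deposited lists were regions called in replicate 1 (19624), in replicate 2 (26209) and on both replicates pooled (26164), and a reproducible list of 767 regions that the authors thresholded from the pooled list. The pooled and replicate lists are permissive: 1098 pooled regions reached a −log10 q of 2, against 758 of the 767 reproducible regions. In replicate 2, 1074 regions reached it, and in replicate 1 the count was 0, with a highest −log10 q of 1.86. Signal is the authors' value per region, on a scale that the labels and headers do not state, so signals were read only within a list. No read counts were in the lists, so the depth of each replicate is unknown.

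Of the 47 cell cycle genes, 6 (12.8%, 95% Wilson interval 5.98 to 25%) had a reproducible region, beside 4.80% of all nuclear protein-coding genes. They were lin-35, cye-1, mcm-10, bub-1, cdc-48.1 and cdk-9, and each had 1. By role, the count was 2 of 11 G1/S genes (18.2%), 1 of 13 replication genes (7.69%), 1 of 17 mitotic genes (5.88%) and 2 of 6 other kinases and segregase genes (33.3%). The roles hold few genes each, and no difference between them was tested. The pooled-list signals of the 6 regions ran between 96.2 and 269, and their places in the reproducible list, ordered by signal, between 61 and 628. They held the same places in the pooled list, so down to place 628 the reproducible list was the pooled list by signal.

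Among the G1/S genes, the highest signal was upstream of lin-35, the worm retinoblastoma homolog (chromosome I, 5807709 to 5815637, plus strand). Its reproducible region spanned 5807415 to 5807581 and its summit lay 222 bp upstream of the gene. The signal there was 119 in replicate 1, 155 in replicate 2 and 269 in the pooled list, which placed it at 69, 51 and 61 by signal in the replicate 1, replicate 2 and reproducible lists. It was therefore among the higher regions of every list. The start of vps-51, a vesicle tethering subunit read from the opposite strand, was 196 bp from the summit and so slightly nearer than that of lin-35.

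The region of cye-1, which encodes cyclin E, the partner of CDK2 at S phase entry, lay inside the gene (chromosome I, 6780799 to 6784397, plus strand). Its signal was 121 in replicate 1, 93.3 in replicate 2 and 215 in the pooled list. The summit, 1005 bp downstream of the 5' end and within an intron, fell 1 bp from the start of a tRNA-Cys gene, C37A2.t1, read from the same strand. A tRNA start stood within 500 bp of 145 of the 746 nuclear reproducible regions (19.4%), whose median signal was 141, against 115 over all nuclear reproducible regions; by signal, the cye-1 region was at place 29 of those 145. Whether the signal belongs to cye-1 or to the tRNA gene was not tested. The regions of lin-35 and cye-1 were narrow, at 167 and 170 bp, while 665 of the 746 nuclear reproducible regions were 460 bp wide.

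Upstream of mcm-10, which encodes a replication initiation factor that acts with the loaded helicase, the replicates had their highest summits in different places. The gene lies on chromosome III, 11317570 to 11326664, plus strand, and the reproducible region at 11317034 to 11317493 had its summit 306 bp upstream with a pooled signal of 140. Replicate 1 had a summit 5 bp from it with a signal of 65.6. In replicate 2 the nearest summit was 148 bp away with a signal of 73.9, and it matched a second pooled region, 107 bp upstream with a signal of 56.8, to within 51 bp. Both replicates thus had a region in this promoter, but the reproducible summit itself was matched within 100 bp in replicate 1 only. The summit also lay in an intron of teg-1, which is read from the opposite strand and starts 967 bp away.

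On chromosome II, the segregase gene cdc-48.1 (10560036 to 10563407, minus strand) had its region at 10563319 to 10563778. CDC-48 is an ATPase that extracts ubiquitinated proteins, including licensing factors, from chromatin. The signal was 45.2 in replicate 1, 55.3 in replicate 2 and 99.5 in the pooled list, with the summit 142 bp upstream of the gene. This was close to the lower end of the reproducible list, at place 576 by signal. The start of a snoRNA gene, C06A1.9, was 485 bp from the summit, farther than that of cdc-48.1.

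The 300 bases around these 2 summits are printed because they are the DNA under the reproducible regions of a replication gene and of the segregase gene. Those of fzr-1 and cdc-14, the G1/S and mitotic genes with the highest signals outside the reproducible list, are printed for comparison. They are from the RefSeq genome of ce11, on the strand of each gene and 5' to 3', with the summit at position 150. Capitals mark matches, on either strand, to the forkhead core (GTAAACA or GTAAATA), E2F letters (TTTCCCGC, TTTCGCGC, TTTGCCGC or TTTGGCGC), GAGAGA or the tRNA B box core (GTTCGANTC).
mcm-10 chrIII:11317115-11317414 (+): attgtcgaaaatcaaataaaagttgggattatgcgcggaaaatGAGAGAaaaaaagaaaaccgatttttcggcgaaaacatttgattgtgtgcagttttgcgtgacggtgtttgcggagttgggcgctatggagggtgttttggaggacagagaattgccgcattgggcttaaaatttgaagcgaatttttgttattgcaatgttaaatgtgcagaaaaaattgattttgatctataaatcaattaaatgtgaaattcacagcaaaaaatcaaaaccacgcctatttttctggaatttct
cdc-48.1 chrII:10563399-10563698 (-): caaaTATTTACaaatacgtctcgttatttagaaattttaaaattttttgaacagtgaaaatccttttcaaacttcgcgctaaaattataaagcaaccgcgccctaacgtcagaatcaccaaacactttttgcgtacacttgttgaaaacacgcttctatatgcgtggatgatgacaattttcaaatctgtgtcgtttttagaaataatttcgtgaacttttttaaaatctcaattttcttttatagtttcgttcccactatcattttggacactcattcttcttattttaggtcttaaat
fzr-1 chrII:9646181-9646480 (-): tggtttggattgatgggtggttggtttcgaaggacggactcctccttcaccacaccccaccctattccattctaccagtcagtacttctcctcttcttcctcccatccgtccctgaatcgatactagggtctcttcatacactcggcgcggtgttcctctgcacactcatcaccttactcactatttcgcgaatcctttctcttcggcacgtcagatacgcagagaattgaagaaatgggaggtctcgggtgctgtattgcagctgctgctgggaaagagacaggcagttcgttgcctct
cdc-14 chrII:5594312-5594611 (-): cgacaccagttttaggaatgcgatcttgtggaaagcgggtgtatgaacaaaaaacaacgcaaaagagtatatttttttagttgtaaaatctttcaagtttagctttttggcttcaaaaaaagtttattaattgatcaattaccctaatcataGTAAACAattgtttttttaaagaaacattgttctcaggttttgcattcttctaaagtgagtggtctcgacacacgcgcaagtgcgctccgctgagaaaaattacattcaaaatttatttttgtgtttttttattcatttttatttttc
The mcm-10 stretch held 1 GAGAGA, 106 bp before the summit, and the cdc-48.1 stretch 1 forkhead core in its reverse form, 145 bp before the summit. No match lay in the fzr-1 stretch, which was 51.7% G or C, against 35.7% for mcm-10, 30.7% for cdc-48.1 and 31.0% for cdc-14. In the cdc-14 stretch a forkhead core began 3 bp from the summit.

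The other 2 reproducible regions lay between divergent genes on chromosome I. The region of bub-1, a spindle checkpoint kinase gene (7251941 to 7255223, plus strand), spanned 7251465 to 7251924 with its summit 246 bp upstream. Its signal was 49.2 in replicate 1, 83.7 in replicate 2 and 138 in the pooled list. The region of cdk-9, the kinase gene of the transcription elongation factor P-TEFb (11323527 to 11333154, plus strand), spanned 11323145 to 11323604 with its summit 152 bp upstream. There the signal was 43.2 in replicate 1, 52.7 in replicate 2 and 96.2 in the pooled list, the lowest of the 6. The opposite-strand neighbours were lin-61, a chromatin repressor gene that starts 413 bp from the bub-1 summit, and hxk-2, a hexokinase gene that starts 265 bp from the cdk-9 summit. With lin-35, 3 of the 6 regions (50%) lay between divergent coding starts that were both within 500 bp, beside 81 of all 746 nuclear reproducible regions (10.9%). At such regions the data do not say to which gene the signal belongs. The 6 regions were taken for lying at a coding gene, which was not asked of the 746, so these 2 shares are over unlike sets.

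Apart from cye-1, the reproducible summits were upstream and close to the gene, 142 to 306 bp from the 5' end. This made 5 of 47 cell cycle genes (10.6%, interval 4.63 to 22.6%) with a reproducible summit within 500 bp upstream, beside 1.89% of all genes. Counted over regions, 5 of the 6 (83.3%) lay there, beside 381 of 1009 pairs of a gene and a reproducible region over all genes (37.8%). In the plot of summit position, the only reproducible summit downstream of a 5' end is that of cye-1.

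**Figure D1:**
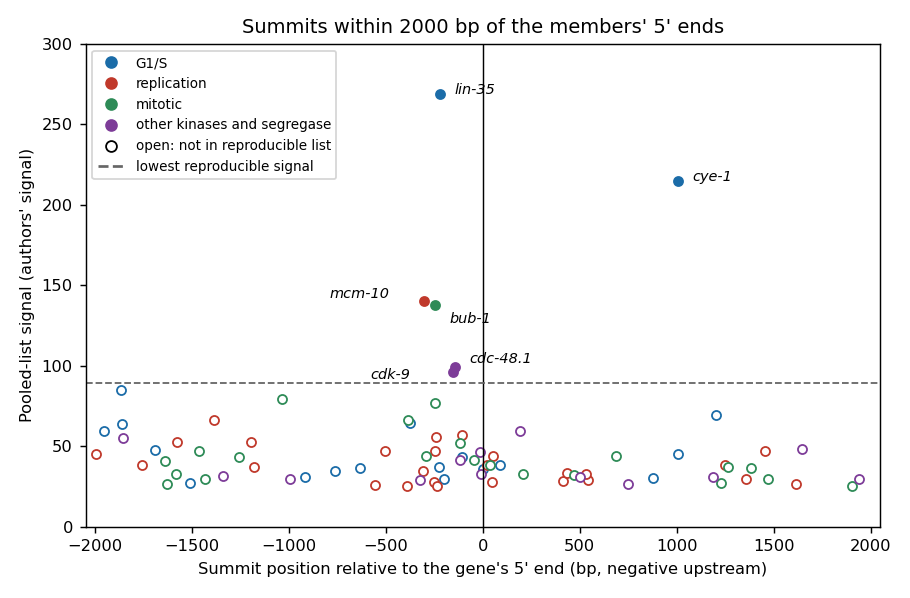
Pooled-list signal (authors' scale) of each region with a summit within 2000 bp of the 5' end of a cell cycle gene, against the summit's distance from that end in bp, negative upstream; filled points are reproducible regions, open points are not, and colours give the role. Of the 6 filled points, 5 lie 142 to 306 bp upstream, with cye-1 at 1005 bp downstream, and the dashed line is the lowest reproducible signal, 89.1.

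Below the reproducible list, whose lowest signal was 89.1, the cell cycle genes with the highest signals were fzr-1 and cdc-14. The gene fzr-1 encodes the Cdh1-type activator of the anaphase promoting complex, which keeps cyclin levels low in G1. Its highest pooled region, at place 898 of the pooled list by signal, had a signal of 85.1 and a −log10 q of 2.08. The summit lay 1865 bp upstream, and the start of sqv-8 was nearer, at 647 bp. Within 2000 bp or inside fzr-1, the highest signal in replicate 1 was 34.8, at −200 bp from the 5' end, and in replicate 2 it was 54.8, at −1892 bp, so the replicates had their highest summits in different places. The region 1865 bp upstream was matched in replicate 1 too, by a summit 91 bp away with a signal of 28.4. With fzr-1, 7 of 47 cell cycle genes (14.9%, interval 7.41 to 27.7%) had a pooled region with a −log10 q of 2 or more, beside 6.67% of all genes.

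The phosphatase gene cdc-14 had 2 pooled regions under the lowest reproducible signal, with signals of 79.4 at 1035 bp and 76.8 at 247 bp upstream. By signal they were at places 1109 and 1229 in the pooled list, with −log10 q of 1.98 and 1.9. The highest signals of cdc-14 were 43.3 in replicate 1 and 35.5 in replicate 2. For the first of these regions, the start of ttc-4 was nearer, at 252 bp. Next among the mitotic genes came cdc-25.2, of the phosphatases that activate CDK1, with 70.5 in an intron, and wee-1.3, of the kinases that inhibit CDK1, with 66.4 at 385 bp upstream. A piRNA gene, 21ur-12807, started 80 bp from the wee-1.3 summit. The cyclin-dependent kinase gene cdk-12 had 71.4 in an intron, and cdk-7, whose kinase activates other cyclin-dependent kinases, had 59.3 in its 5' UTR. None of these regions of cdc-25.2, wee-1.3, cdk-12 and cdk-7 was in the reproducible list.

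In the pooled list, 41 of 47 cell cycle genes (87.2%, interval 74.8 to 94.0%) had a region, beside 65.6% of all genes. Regions of replicate 1 were at 37 of them (78.7%), beside 59.9% of all genes, and regions of replicate 2 at 42 (89.4%), beside 66.5%. A longer gene offers more room for a summit, and the cell cycle genes had a median length of 3056 bp, against 2027 bp over all genes; the part of length in these shares was not tested. Within 500 bp upstream, a window of 1 size for every gene, 22 of 47 (46.8%, interval 33.3 to 60.8%) had a pooled summit, beside 18.9% of all genes. By role these were 5 of 11 G1/S genes (45.5%), 7 of 13 replication genes (53.8%), 5 of 17 mitotic genes (29.4%) and 5 of 6 other kinases and segregase genes (83.3%). Among genes with a pooled region, the highest signal had a median of 51.9 over the 41 cell cycle genes, between 26.4 and 269, and of 42.0 over all 13101 genes, between 25.0 and 874. For 21 of the 41 (51.2%), the start of another gene was nearer to that summit than the gene's own, beside 44.6% of all genes with a pooled region.

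Of the remaining G1/S genes, cdk-4, the kinase partner of cyclin D, had a pooled signal of 64.4 with its summit 377 bp upstream, and signals of 34.2 in replicate 1 and 19.2 in replicate 2. The start of F18H3.1 on the opposite strand was 375 bp from that summit. Cyclin D itself, cyd-1, had 9 pooled regions with a highest signal of 63.9. The highest signals of the kinase inhibitors were 59.3 for cki-2, 1956 bp upstream, and 45.2 for cki-1, 1008 bp from its 5' end and downstream of the gene. Non-coding RNA genes started nearer to both summits, T05A6.11 at 414 bp for cki-2 and T05A6.17 at 355 bp for cki-1. The ubiquitin ligase scaffold cul-1 had 47.5, with the start of D2045.5 at 80 bp, and cdk-2 had 45.2 in a coding exon. Neither E2F-DP gene, efl-1 or dpl-1, had a pooled region. In the replicates, efl-1 reached 23.8 in replicate 2 with no region in replicate 1, and dpl-1 had 21.5 in replicate 1 and 16.8 in replicate 2.

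Among the licensing genes, the kinase gene cdc-7 had a pooled signal of 66.1 at 1388 bp upstream and cdc-6, the helicase loader, 55.9 at 244 bp upstream. Other starts were nearer to both summits, that of acin-1 at 135 bp for cdc-6, and those of the non-coding gene C34G6.13 at 608 bp and of vpr-1 at 832 bp for cdc-7. The origin recognition gene orc-1 had 46.9 at 504 bp upstream, inside dhs-11, whose start was 240 bp away, and orc-2 had 52.6 at 1194 bp upstream, with the start of cyn-4 at 126 bp. The loader cdt-1 had 43.8 in its 5' UTR, and pcn-1, the sliding clamp PCNA, had 47.1 at 248 bp upstream. Over the helicase ring, the highest pooled signals were 38.4 for mcm-2, 27.1 for mcm-3, 58.6 for mcm-4, 28.1 for mcm-6 and 52.5 for mcm-7, with none for mcm-5. The mcm-7 summit, 1578 bp upstream, was inside figl-1, whose start was 411 bp away, that of mcm-2 was 690 bp from the start of glb-29, and that of mcm-3 was inside C25D7.16, 604 bp from its start. None of the 6 ring genes had a reproducible region, beside 4.80% of all genes, and 6 genes are too few to tell these shares apart. Of the 13 replication genes, mcm-10 was the 1 that had such a region (7.69%).

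By role, the median of the highest pooled signals was 63.9 over 9 G1/S genes, 49.8 over 12 replication genes, 42.3 over 14 mitotic genes and 65.3 over 6 other kinases and segregase genes with a pooled region. Of the mitotic genes not yet given, the cyclin genes had highest pooled signals of 40.7 for cya-1, 51.9 for cyb-1 and 36.7 for cyb-3. Their kinase cdk-1 had 44.0, with the start of iff-1 at 14 bp from the summit, and the anaphase activator fzy-1 had 44.2, with that of F12A10.8 at 394 bp. The polo kinase plk-1 had 37.2, the Aurora B kinase air-2 38.3, and the 3 other CDC25 genes cdc-25.1, cdc-25.3 and cdc-25.4 had 32.0, 27 and 26.4. The Aurora A gene air-1 and the cyclin gene cyb-2.2 had no region in any of the lists, and cyb-2.1 had 1 in replicate 1 alone, with a signal of 17. Of the kinases with roles outside the cycle, cdk-5 had 48, with the start of kel-3 at 124 bp, and the Mediator kinase cdk-8 had 32.8.

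**Figure D2:**
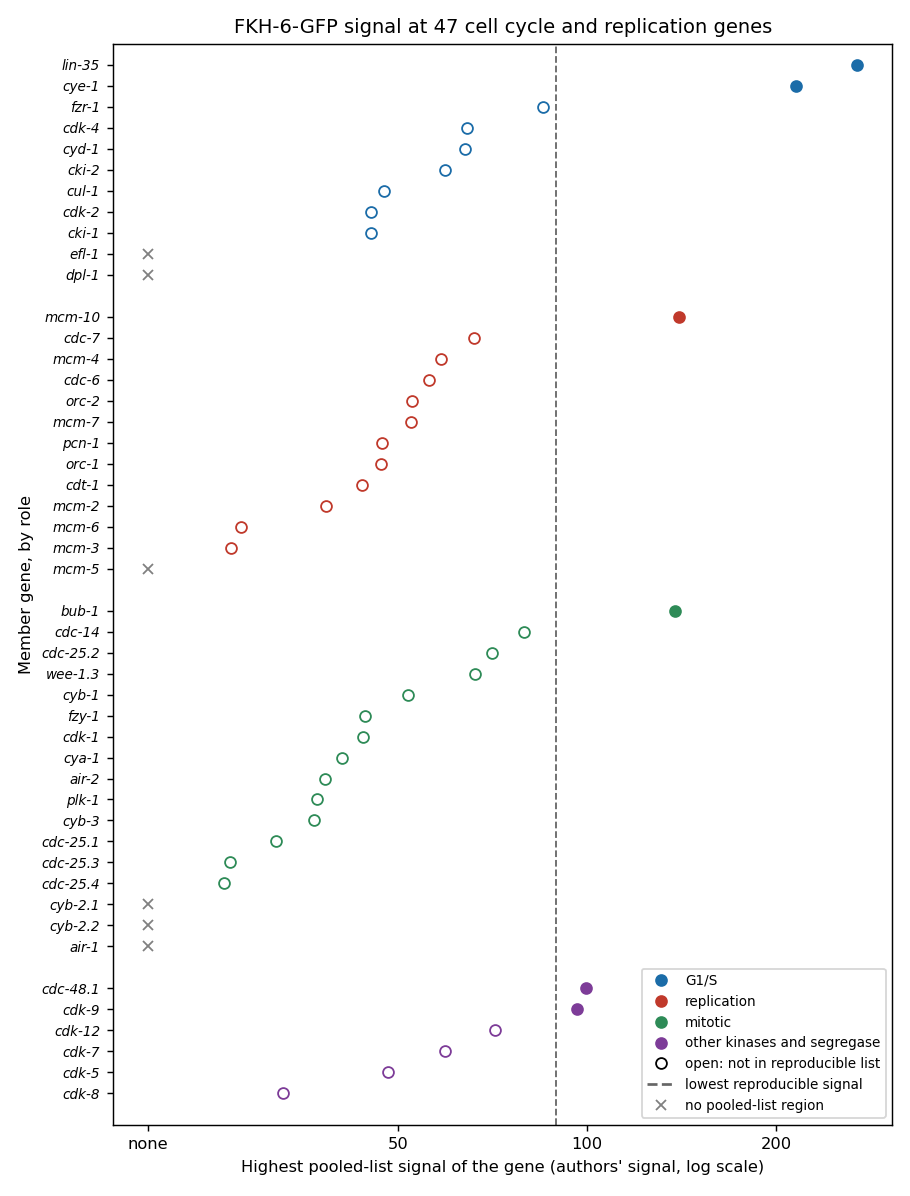
Highest pooled-list region signal (authors' scale, log axis) of each of the 47 cell cycle genes, 1 gene per row, grouped by role and ordered by signal; filled points are reproducible regions, open points are not, and a cross marks a gene with no pooled region. Of the 6 filled points, lin-35 and cye-1 are the highest, at 269 and 215, all lie right of the dashed line at the lowest reproducible signal, 89.1, and 6 genes carry a cross.

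Regions in both replicate lists were found at 34 of the 47 cell cycle genes (72.3%, interval 58.2 to 83.1%), beside 49.5% of all genes. A region in 1 replicate list and not the other was found at 11 (23.4%), 8 in replicate 2 and 3 in replicate 1, beside 27.4% of all genes, and neither replicate had one at 2, beside 23.1%. A region in both lists was not always the same region. Of the 123 pooled regions at these genes, 71 (57.7%) had a replicate 1 summit within 100 bp, beside 48.4% of all 26141 nuclear pooled regions, and 89 (72.4%) a replicate 2 summit, beside 61.7%. Both matched for 46 (37.4%, interval 29.4 to 46.2%), beside 26.3% of all nuclear pooled regions; of the 746 nuclear reproducible regions, 704 (94.4%) matched in both. Among the regions matched in both, the signals of the replicates had a Spearman rho of 0.51 over the 46 regions and of 0.45 over all such nuclear regions. Without the 6 reproducible regions, both matched for 41 of 117 (35.0%) and rho was 0.32. These regions share the same 2 libraries, and the order of genes by the weaker pooled signals is a description of these lists only.

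**Figure D3:**
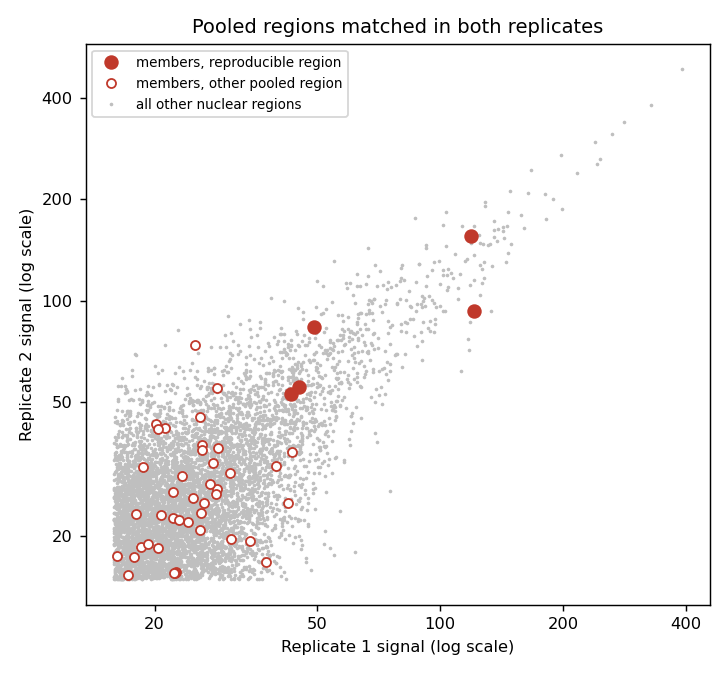
Signal in replicate 2 against signal in replicate 1 (authors' scale, log axes) for pooled regions with a summit within 100 bp in both replicates; red points are regions of the cell cycle genes, filled where reproducible, and grey points all other nuclear regions. The 5 filled points run between 43.2 and 121 in replicate 1, and mcm-10 is not among them because its replicate 2 summit was 148 bp away.

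Within 50 bp on each side of the 6 reproducible summits, no forkhead core, E2F letters, GAGAGA or B box core was found. At cye-1 the summit was 1 bp from the start of the 72 bp tRNA gene. The window ended before the end of that tRNA gene, so it cannot say whether the gene holds a B box core. Over all 746 nuclear reproducible regions, such windows held a forkhead core in 2.14%, E2F letters in 3.49%, GAGAGA in 21.4% and the B box core in 4.42%. The 95% Wilson interval of 0 of 6 windows reaches 39%, so no difference from those shares was detectable. At the 123 pooled summits of the cell cycle genes, a forkhead core was in 2 windows (1.63%), of cdc-14 and air-2, beside 2.46% of all pooled windows. E2F letters were in 5 (4.07%), of cyd-1, cki-2, cdt-1, cdc-25.2 and wee-1.3, beside 2.36%, and GAGAGA in 22 (17.9%), beside 10.8%. The share of G and C at the 6 reproducible summits was 44.1% ± 5.87 (SD, n = 6 regions), against 50.3% ± 7.48 (SD, n = 746 regions) at all nuclear reproducible summits.

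Promoters were searched for the same letters whether or not they held a region. In the 300 bases around each 5' end, 250 before and 50 after, E2F letters were in 15 of 47 cell cycle genes (31.9%, interval 20.4 to 46.2%), beside 4.69% of all genes. They were in 9 of 13 replication genes (69.2%), 4 of 11 G1/S genes (36.4%), 2 of 17 mitotic genes (11.8%) and 0 of 6 other kinases and segregase genes. The forkhead core was in 8.51% of the cell cycle promoters, beside 11% of all, and GAGAGA in 27.7%, beside 21.8%. The B box core was in 0 of 47, beside 0.556% of all. A match is a description of the letters and not a bound site. None of the 9 replication genes with E2F letters had a reproducible region, and the stretches of cdc-7, cdt-1 and mcm-4 are not printed. These 40-base stretches, on the strand of each gene, are from the promoters of the other 6. Only the E2F letters are in capitals here, in forward or reverse form.
mcm-3 chrV:15059720-15059759 (-): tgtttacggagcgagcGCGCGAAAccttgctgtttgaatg
mcm-5 chrIII:4291437-4291476 (-): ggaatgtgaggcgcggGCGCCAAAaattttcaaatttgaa
mcm-6 chrIII:9794231-9794270 (+): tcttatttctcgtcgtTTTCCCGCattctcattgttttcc
mcm-7 chrV:4347002-4347041 (+): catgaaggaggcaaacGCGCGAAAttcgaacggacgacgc
orc-1 chrIII:10643041-10643080 (+): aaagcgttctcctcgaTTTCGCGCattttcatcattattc
pcn-1 chrIV:4049613-4049652 (-): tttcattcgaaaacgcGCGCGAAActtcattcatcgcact
The mcm-3 stretch also opens with a forkhead core in its reverse form, TGTTTAC, 160 bp upstream, left in lower case. Of 2 E2F matches in mcm-6, 1 is shown. The E2F matches shown lay 144, 194, 120, 148, 72 and 188 bp upstream in mcm-3, mcm-5, mcm-6, mcm-7, orc-1 and pcn-1, in that order. The nearest pooled summit was 64 bp away at pcn-1, 110 bp at mcm-7, 162 bp at mcm-6, 169 bp at orc-1 and 251 bp at mcm-3, and mcm-5 had none. In the genes not printed, positions are from the 5' end. The match and its nearest pooled summit were at 28 and 52 bp in cdt-1. They were at −146 and 22 bp in cdc-7 and at −131 and −310 bp in mcm-4.

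**Figure D4:**
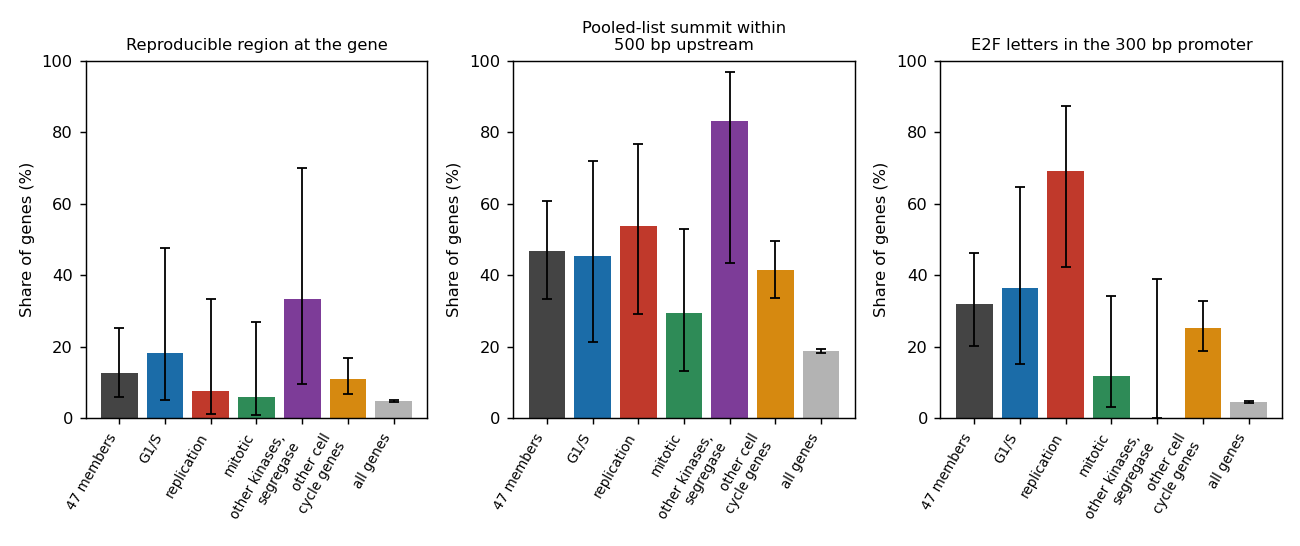
Share of genes, in percent, with a reproducible region (left), with a pooled-list summit within 500 bp upstream (middle) and with E2F letters in the 300-base promoter (right), for the 47 cell cycle genes (members), their 4 roles, the other cell cycle genes and all nuclear protein-coding genes; bars are shares and whiskers 95% Wilson intervals, which cover counting error only. The replication genes have the tallest bar on the right, at 69.2%. On the left they stand at 7.69% (1 of 13 genes, interval 1.37 to 33.3%) and all genes at 4.80%.

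Of the 15 cell cycle genes with E2F letters in the promoter, 0 had a reproducible region, a count that allows a share of up to 20%, and of the 32 without, 6 had one (18.8%). In the pooled list the shares were 13 of 15 (86.7%) with the letters and 28 of 32 (87.5%) without. Over all genes, a reproducible region was at 61 of 936 genes with the letters (6.52%) and at 898 of 19037 without (4.72%). The limit of 20% takes in the share of 18.8% without the letters, and this comparison was chosen after the lists were seen.

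Another 147 cell cycle genes, on 4 lists of related genes, were read in the same way. Of these, 16 of 147 (10.9%, interval 6.81 to 16.9%) had a reproducible region, beside 4.80% of all genes. Most were mitosis genes, 14 of 73 (19.2%, interval 11.8 to 29.7%). Replication genes had 2 of 39 (5.13%), near the share of all genes. G1/S and ubiquitin ligase genes had 0 of 19 (interval up to 16.8%). Other cyclins, kinases and segregase partners had 0 of 16 (interval up to 19.4%). The last 2 intervals take in 4.80%, and no difference between the lists was tested. The median length of the 147 genes was 3484 bp, against 2027 bp over all genes, and the part of length was not tested. The highest signals were 198 at emb-1, an anaphase promoting complex subunit, 190 at mix-1, a condensin subunit, and 160 at spd-5, a centrosome scaffold. For emb-1 the start of K10D2.5 was nearer, 17 bp from the summit, and for mix-1 that of a snoRNA gene, M106.6, 57 bp from it. Close upstream summits were those of the chromosomal passenger gene bir-1 (121, at 160 bp), the centriole gene sas-5 (120, at 89 bp), the cohesin gene smc-3 (119, at 165 bp, with mib-1 nearer at 63 bp), the condensin gene hcp-6 (110, at 128 bp) and the kinetochore gene ndc-80 (106, at 221 bp). Other coding genes also started within 500 bp, let-630 at 136 bp for hcp-6, col-2 at 465 bp for ndc-80 and piit-1 at 499 bp for sas-5. There too the data do not say to which gene the signal belongs. The others of the 12 highest were the centriole gene sas-4 (123, at 716 bp upstream, with F10E9.11 nearer at 44 bp), the kinesin gene klp-18 (106, at 545 bp upstream, with cogc-2 nearer at 86 bp), the spindle gene tpxl-1 (107, in an intron 4729 bp from its 5' end, with epg-2 nearer at 418 bp) and the cohesin loader scc-2 (119, in an intron). The replication genes, named after their values were seen, were clsp-1 (92.2), where eef-2 started 8 bp from the summit, and tim-1 (89.6), where a small nuclear RNA gene, sls-2.8, started 47 bp from it.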

How the data were processed

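The data were deposited ChIP-seq region lists of 2 biological replicates, called separately for each replicate and on both pooled, and a reproducible list that the authors cut from the pooled one by irreproducible discovery rate, per the descriptions of the files. The signal of each region is the authors' value on an unstated scale, and the −log10 q-value is the authors' too. The summit offset is also deposited, and the summit is the region start plus this offset. Neither labels nor headers name the peak caller, the aligner, their versions or the threshold. The lists in ce10 and the control libraries were not analysed here, no coordinates were converted between builds, and 0 columns of other samples were present. Depth is unknown.

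Genes came from Ensembl release 115 and sequences from the RefSeq genome, both WBcel235. Summits were assigned within 2000 bp of a 5' end or inside the gene, and matched between lists within 100 bp. Shares have 95% Wilson intervals, and these and the limit of 3 counts for a count of 0 cover counting error only. With 1 group, no test was made. The 47 genes, the other gene lists and the settings were chosen with earlier results of these data known. Genes named were all with a reproducible region, the 4 of each role highest by pooled signal, those with no region in any list, at most 12 other cell cycle genes by signal, and nearer starts; the remaining genes are given for completeness. Of 152 other genes listed, 147 were found by name. Scripts were tested on simulated data. Python 3.11.15, NumPy 2.4.6, SciPy 1.17.1 and Matplotlib 3.10.9 were used.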

Additional observations from a re-analysis of the deposited data

How the results depend on the processing

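The count of cell cycle genes with a reproducible region, 6, stayed at 6 with distances of 500, 1000 or 5000 bp, with summits near 5' ends only, and with a −log10 q of 2 or more. It was 5 with upstream summits only and without summits that have a nearer non-coding start, where cye-1 was lost, 5 with each summit given to its nearest coding start, where lin-35, the gene with the highest signal, was lost to vps-51, and 4 among the 373 highest-signal regions. The share over all genes, 4.80%, moved more: it was 3.12% at 500 bp, 3.76% at 1000 bp, 8.16% at 5000 bp, 4.13% near 5' ends only, 3.30% upstream only, 2.56% by nearest start, 3.18% without nearer non-coding starts and 2.54% among those 373. These follow from the windows and lists themselves. Without replicate 1 or without replicate 2, using the highest 767 regions of the other, the count was 7 and the share 4.70 to 4.78%; the count gained fzr-1 or cdc-14, and the 6 genes were in both. Reproducible regions of cell cycle genes matched in both replicates were 5 of 6 within 100 bp, 4 within 50 bp and 6 within 250 bp, beside 704 of all 746 nuclear reproducible regions within 100 bp (94.4%). The reproducible list was cut from the pool of these same 2 replicates, so recovery of its regions in either is a description only. Read depth is unknown, and 6 regions do not separate the roles.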
